A study of Mus musculus with 21 samples.

Results

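The 10 genes described here belong to transforming growth factor beta (TGF-beta) signalling and were measured in mouse liver after deletion of Gata4 from sinusoidal endothelium. They were the ligands Tgfb1, Tgfb2 and Tgfb3, the receptors Tgfbr1, Tgfbr2, Tgfbr3, Eng and Acvrl1, the signal transducer Smad3 and the decoy receptor Bambi. They were chosen by symbol in the platform annotation, and all 10 were found, 1 row each, among 25428 rows. The 10 knockout livers (Gata4-LSEC-KO) came from crosses of a Clec4g-icre driver line (C57BL/6N-Tg(Clec4g-icre)1.1Sgoe) with Gata4 floxed mice (STOCK Gata4tm1.1Sad/J). The 11 control livers, labelled wt, came from siblings. All livers were from mice on the diet labelled std, and the sources used here do not give age, sex or whether controls carried the driver or the floxed allele. Cre was driven by Clec4g sequence, a lectin gene of liver sinusoidal endothelium, so the deletion concerned a minority of the cells in the whole liver lysates that were hybridised to Affymetrix arrays, 1 array per liver. Sample numbers in the labels formed 2 runs of consecutive values, run 1 with 4 knockout and 5 control livers and run 2 with 6 and 6, and the fit held run beside genotype.

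TGF-beta ligands are secreted in latent form and held in the matrix until they are activated. Active ligand binds TGFBR2, which recruits TGFBR1, and the complex phosphorylates SMAD2 and SMAD3, while TGFBR3 (betaglycan) presents ligand and BAMBI, which lacks a kinase domain, damps the response. In endothelium a parallel branch runs through ACVRL1 (ALK1) and its co-receptor endoglin (ENG), binds BMP9 and BMP10, and signals through SMAD1 and SMAD5. In the liver the TGF-beta branch is known as a driver of matrix production by stellate cells.

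The promoter windows of the members on which the results turn most, Eng and Tgfb1, are shown for reference, from 250 bases before to 50 bases after the gene start (RefSeq, GRCm38.p6, both on the plus strand). Windows were at hand for 6 of the 10 members, with 7 windows in all. Capitals mark CAGAC, the core of the SMAD binding element, searched on both strands (GTCTG is its reverse complement).
Eng, chr2:32646345-32646644: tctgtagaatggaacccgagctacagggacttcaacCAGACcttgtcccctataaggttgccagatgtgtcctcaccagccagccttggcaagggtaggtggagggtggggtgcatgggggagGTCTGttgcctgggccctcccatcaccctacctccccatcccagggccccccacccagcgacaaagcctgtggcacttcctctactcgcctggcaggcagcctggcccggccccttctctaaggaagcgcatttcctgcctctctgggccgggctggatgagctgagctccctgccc
Tgfb1, chr7:25686752-25687051: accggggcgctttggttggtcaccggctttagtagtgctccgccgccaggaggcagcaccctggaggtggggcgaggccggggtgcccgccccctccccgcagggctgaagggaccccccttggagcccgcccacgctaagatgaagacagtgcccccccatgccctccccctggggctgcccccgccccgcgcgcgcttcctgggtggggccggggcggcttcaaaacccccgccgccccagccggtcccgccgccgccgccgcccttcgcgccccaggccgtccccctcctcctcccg

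The Eng window held 2 CAGAC matches, starting 214 and 127 bases before the gene start, and was 63.3% G and C with 6 CG pairs. The Tgfb1 window held none and was 77.0% G and C with 30 CG pairs. The CAGAC core was in 4 of the 7 member windows, against 49.6% of 32851 windows of all genes. The GATA motif, spelled AGATAA or AGATAG, or either of these with T as the first base, on both strands, was in 1 of the 7, that of Tgfb2, against 29.8% of all windows.

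Of the 10 genes, Eng rose in knockout livers and the other 9 did not pass the test; none fell. Eng was 1.39-fold higher and Tgfb1, the most studied ligand, was 1.33-fold higher without passing. The threshold was a limma p of 0.05 after Benjamini-Hochberg adjustment over all 25428 rows. Of all rows 7.33% passed, 3.28% higher and 4.05% lower, so 1 of 10 was close to that background. At an unadjusted p under 0.05, 3 of the 10 (Eng, Tgfb1 and Acvrl1) were counted, against 22.4% of all rows. The log2 difference, knockout minus control, was above 0 for 9 of the 10 genes with a median of 0.14, while 45.1% of all rows were above 0 with a median of -0.013.

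**Figure D1:**
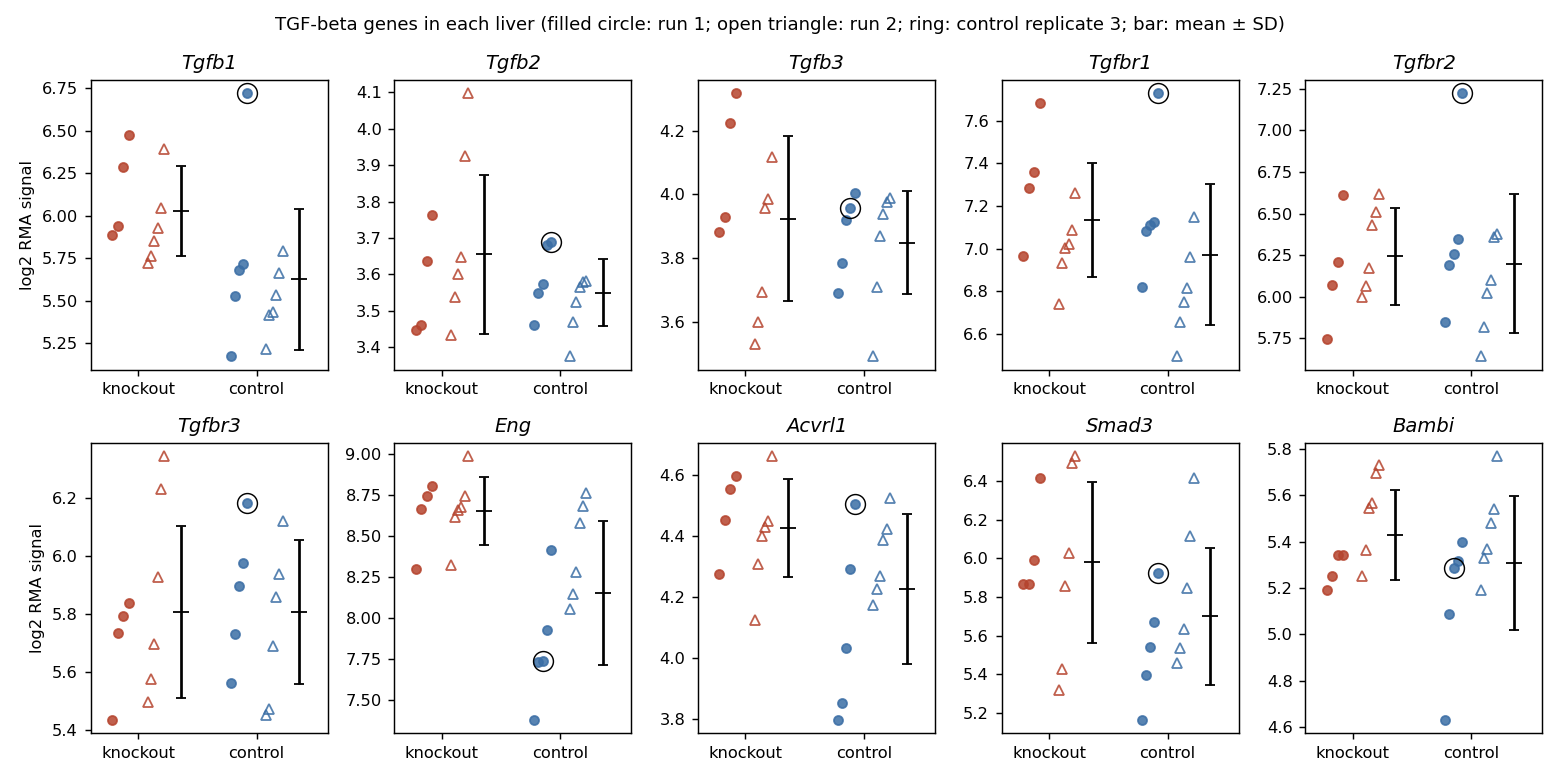
Log2 RMA signal (vertical axis) of the 10 TGF-beta genes in each of 10 knockout and 11 control livers, by run, with the mean and SD of each group. Eng separates the groups most in run 1, and control replicate 3 (ringed) is the highest of all 21 livers for Tgfb1, Tgfbr1 and Tgfbr2.

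Whole-series checks were as follows. Gata4 itself differed by -0.19 ± 0.10 (log2, SE; limma adjusted p = 0.26), which did not pass. The sources used here do not say whether its probes lie inside the floxed part. Clec4g fell by 0.92 ± 0.23 (adjusted p = 0.018). The hepatocyte marker Alb averaged 13.77 in knockout livers and 13.77 in control livers, near the top of the array's range, where a change may not be visible. None of 9 hepatocyte markers passed. Control replicate 3 stood apart from the other controls: its mean over 12 Kupffer cell and macrophage markers was 1.19 above the control mean of its run (the next control 0.72), and its means over 9 monocyte and 11 lymphocyte markers were 0.70 (next 0.13) and 0.61 (next 0.30). Member calls and list counts that change without it are given both ways.

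Among the ligands, Tgfb1 had log2 values from 5.72 to 6.47 with a median of 5.93 in knockout livers, and from 5.17 to 6.72 with a median of 5.53 in control livers. All 10 knockout livers lay above the control mean of their run. The groups overlapped because of 2 controls, of which replicate 3, at 6.72, was the highest of all 21 livers. The difference was 0.42 ± 0.14 (SE; 95% interval 0.12 to 0.71), 0.38 in run 1 and 0.44 in run 2, and it did not pass over all rows (adjusted p = 0.075). Without control replicate 3, Tgfb1 rose by 0.51 ± 0.10 (adjusted p = 0.0044), making 2 of the 10 genes higher, when 8.25% of all rows passed and 3.86% were higher. Of the 21 single omissions, this was the only 1 after which Tgfb1 passed.

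Tgfb2 and Tgfb3, the ligands better known from development, showed smaller differences. Tgfb2 ranged from 3.43 to 4.10 (median 3.62) in knockout livers and from 3.38 to 3.69 (median 3.57) in control livers. Its control mean lay under the array median of 3.75, where values can be close to background. The Tgfb2 difference was 0.10 ± 0.07 (SE; 95% interval -0.047 to 0.26; adjusted p = 0.44), and the 3 highest livers were knockout replicates 7, 10 and 4. Tgfb3 ranged from 3.53 to 4.32 (median 3.94) in knockout livers and from 3.49 to 4.003 (median 3.92) in control livers. The groups overlapped widely, with a difference of 0.08 ± 0.09 (SE; 95% interval -0.096 to 0.26; adjusted p = 0.63), which was 0.22 in run 1 and -0.015 in run 2.

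The signalling receptors did not pass. Tgfbr1, the kinase that phosphorylates SMAD2 and SMAD3, ranged from 6.74 to 7.68 (median 7.05) in knockout livers and from 6.49 to 7.73 (median 6.96) in control livers. Its difference was 0.18 ± 0.10 (SE; 95% interval -0.037 to 0.40; adjusted p = 0.33), with 8 of 10 knockout livers above the control mean of their run. Tgfbr2, the ligand-binding kinase, ranged from 5.75 to 6.62 (median 6.19) in knockout livers and from 5.64 to 7.23 (median 6.19) in control livers. The medians were nearly equal and the difference was 0.05 ± 0.15 (SE; 95% interval -0.27 to 0.36; adjusted p = 0.90). Control replicate 3 was again the highest liver for both receptors, and without it the differences were 0.24 ± 0.09 for Tgfbr1 (adjusted p = 0.11) and 0.15 ± 0.12 for Tgfbr2 (adjusted p = 0.52). Tgfbr3, the co-receptor betaglycan, had the smallest difference of the 10 genes, -0.0013 ± 0.12 (SE; 95% interval -0.24 to 0.24; adjusted p = 0.997). It ranged from 5.44 to 6.34 (median 5.77) in knockout livers and from 5.45 to 6.18 (median 5.86) in control livers. Without control replicate 3 the Tgfbr3 difference had the other sign, at 0.037 ± 0.11 (SE), with a limma adjusted p of 0.89.

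The endothelial co-receptor gene Eng had log2 values from 8.30 to 8.99 with a median of 8.67 in knockout livers, and from 7.38 to 8.76 with a median of 8.15 in control livers. With both runs pooled, the SD was 0.21 in knockout livers and 0.44 in controls. The control SD includes the gap between the control means of the runs (7.84 and 8.42). Of the 11 controls of both runs, 4 reached the lowest knockout value, that of a run 1 liver. Eng rose by 0.48 ± 0.13 (SE; 95% interval 0.21 to 0.75; limma adjusted p = 0.029), with 9 of 10 knockout livers above the control mean of their run. The call was lost without any 1 of knockout replicates 3, 4 and 10 or control replicates 8 and 9, where the adjusted p lay between 0.052 and 0.057.

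The difference of Eng was larger in run 1 than in run 2. In run 1, knockout livers averaged 8.63 ± 0.23 (SD, n = 4) and control livers 7.84 ± 0.38 (SD, n = 5), a difference of 0.79 ± 0.19 (SE). In run 2, knockout livers averaged 8.67 ± 0.21 (SD, n = 6) and control livers 8.42 ± 0.30 (SD, n = 6), a difference of 0.25 ± 0.14 (SE). The knockout means of the runs were thus alike, while the control means were further apart. Within a run Eng did not pass (adjusted p = 0.18 in run 1 and 0.31 in run 2; 0.0118% and 5.06% of all rows passed there). The genotype by run term of Eng was -0.54 ± 0.24 (SE; unadjusted p = 0.035, limma adjusted p = 0.45), so a change between runs was not shown over all rows, of which 0.0315% passed.

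Acvrl1, the receptor kinase that partners endoglin, ranged from 4.12 to 4.66 (median 4.44) in knockout livers and from 3.80 to 4.53 (median 4.27) in control livers. Its 3 lowest livers were controls of run 1. The difference was 0.19 ± 0.09 (SE; 95% interval 0.010 to 0.38; adjusted p = 0.19), which did not pass, and it was 0.38 in run 1 and 0.06 in run 2.

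Smad3, which carries the signal to the nucleus, ranged from 5.32 to 6.53 (median 5.93) in knockout livers and from 5.17 to 6.42 (median 5.64) in control livers. It was the most variable of the 10 genes among knockout livers (SD 0.41), with replicates 5 and 6 near the bottom of the control range and replicates 7 and 9 above every control. Its difference was 0.27 ± 0.16 (SE; 95% interval -0.061 to 0.60; adjusted p = 0.34), 0.50 in run 1 and 0.11 in run 2. Bambi, the decoy receptor, ranged from 5.19 to 5.73 (median 5.35) in knockout livers and from 4.63 to 5.77 (median 5.33) in control livers. The Bambi groups overlapped almost fully, with a difference of 0.10 ± 0.09 (SE; 95% interval -0.079 to 0.29; adjusted p = 0.54).

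**Figure D2:**
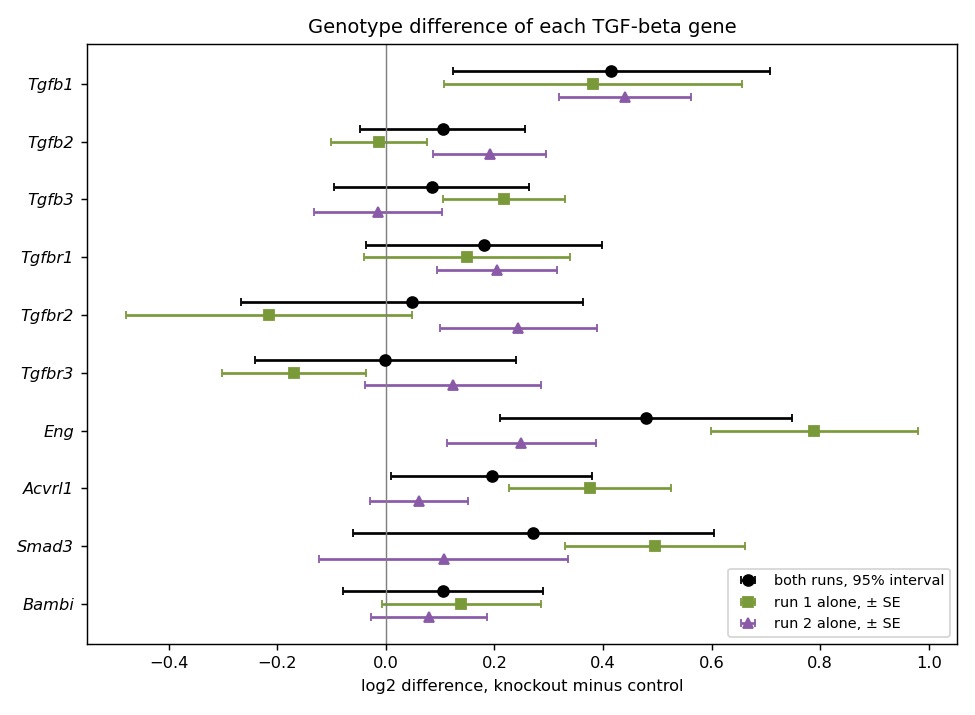
Log2 difference, knockout minus control, of each TGF-beta gene over both runs (black, 95% interval), in run 1 (squares, SE) and in run 2 (triangles, SE). The intervals of Tgfb1, Eng and Acvrl1 lie above 0, and Tgfb2, Tgfb3, Tgfbr2 and Tgfbr3 have opposite signs in the 2 runs.

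The 10 genes did not share 1 pattern over the runs. The differences of Eng, Acvrl1 and Smad3 were larger in run 1 (0.79, 0.38 and 0.50) than in run 2 (0.25, 0.06 and 0.11). Tgfbr2 and Tgfbr3 were -0.22 and -0.17 in run 1 and 0.24 and 0.12 in run 2. None of the 10 genotype by run terms passed the test, and 1 of 10, that of Eng, had an unadjusted p under 0.05, against 10.2% of all rows.

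**Figure D3:**
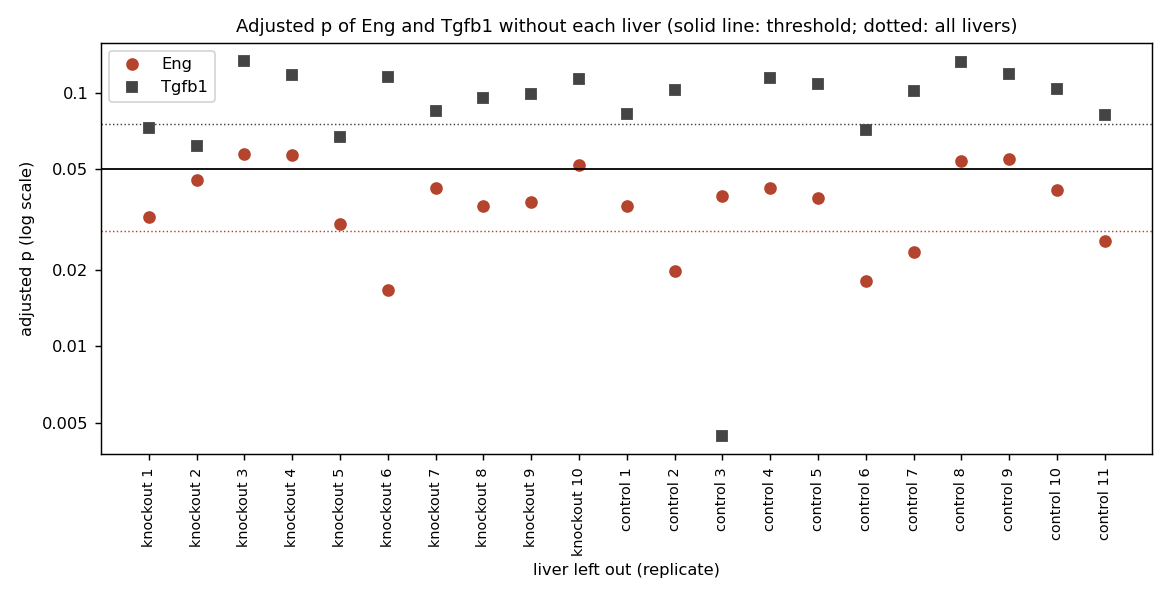
Adjusted p (vertical log axis) of Eng and Tgfb1 when each liver in turn is left out (horizontal axis), with the threshold of 0.05 (solid) and the value over all livers (dotted). Eng crosses the threshold without any 1 of 5 livers, and Tgfb1 passes without control replicate 3 alone.

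Markers of liver cell types were followed beside the members. A liver's score for a list averaged, over the list's genes, how far the liver lay from the controls of its run on the log2 scale, and members and scores were correlated over the 21 livers after the mean of each genotype in each run had been removed. Of 155 relations, 45 between members and 110 between a member and a list, 4 passed by both coefficients after Benjamini-Hochberg adjustment over all of them (100000 permutations within genotype and run, two-sided). In bulk liver, fewer cells of a type and less RNA per cell cannot be told apart.

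Eng followed the endothelial markers. Its Pearson r with 14 pan-endothelial markers was 0.86 and Spearman's rho 0.80 (permutation, adjusted p = 0.0047 and 0.012), with r of 0.88 in run 1, 0.85 in run 2 and 0.79 without the 2 livers of most extreme Eng. With 14 sinusoidal markers r was 0.87 and rho 0.76 (permutation, adjusted p = 0.0047 and 0.019), with r of 0.92 in run 1, 0.81 in run 2 and 0.78 without the 2 extreme livers. Between the genotypes these lists did not move with Eng. Of the pan-endothelial markers 1 rose (Emcn, also a continuous capillary marker) and 1 fell (Ptprb), with a median of -0.0038. Without control replicate 3 these counts were 2 and 1. Of the sinusoidal markers none rose and 8 fell, with a median of -0.45. The pan-endothelial scores ran from -0.22 to 0.41 in knockout livers and from -0.33 to 0.36 in control livers. The sinusoidal scores ran from -0.90 to -0.24 in knockout livers and from -0.38 to 0.60 in control livers.

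A fit added after seeing the data took the pan-endothelial score of each liver as a covariate. In that fit Eng was 0.40 ± 0.08 higher (SE, limma adjusted p = 0.0071), while Acvrl1 (0.16 ± 0.08, adjusted p = 0.26) did not pass. The share of all rows passing there is not given here, so the call of Eng was not set against background. The gene most like Eng over the 21 livers, by the same deviations among 11423 genes, was Ptprb (r = 0.86, rho = 0.85). Ptprb, an endothelial phosphatase, is itself on the pan-endothelial list. Next came Arhgef15 (r = 0.84, rho = 0.75), and Ap3m2, an adaptor protein subunit (r = 0.82, rho = 0.83). These r values are descriptions, since the genes were picked for them. Ptprb fell by 0.56 ± 0.11 (SE; adjusted p = 0.0043), opposite to Eng, and Arhgef15 (-0.019 ± 0.073) and Ap3m2 (0.12 ± 0.07) did not pass. Of 14 markers of continuous capillaries 10 rose and none fell, with a median of 0.76, and the lowest adjusted p values were those of Esm1, which marks sprouting endothelium (2.05 ± 0.25), and the collagen gene Col4a1 (0.88 ± 0.11). All 10 knockout livers scored above the highest control for that list (0.44 to 1.20 in knockout livers and -0.21 to 0.21 in control livers). Over the 21 livers Eng had an r of 0.61 and a rho of 0.69 with this list (permutation, adjusted p = 0.062 and 0.059), which did not pass, with r of 0.38 in run 1, 0.80 in run 2 and 0.68 without the 2 extreme livers.

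Tgfb1 followed lymphocyte markers, with r of 0.82 and rho of 0.84 (permutation, adjusted p = 0.0047 for both). The r was 0.85 in run 1, 0.87 in run 2, 0.69 without the 2 livers of most extreme Tgfb1 and 0.77 without control replicate 3. Of the 11 lymphocyte markers 7 rose and none fell, and 8 rose without control replicate 3 (Igkc by 2.24 ± 0.41 and Ighm by 1.93 ± 0.39, the light and heavy chain genes of B cells), and the scores ran from 0.36 to 1.40 in knockout livers and from -0.37 to 0.61 in control livers. Of 12 Kupffer cell and macrophage markers 7 rose, and 8 without control replicate 3 (C1qb by 1.46 ± 0.24, C1qa by 0.79 ± 0.16), with scores from 0.35 to 1.41 in knockout livers and from -0.92 to 1.19 in control livers. Over all livers the 5 others did not pass, and they are named here outside the naming rule. They were Csf1r (0.68 ± 0.23), Timd4 (0.46 ± 0.21), Clec4f (0.30 ± 0.22), Marco (0.42 ± 0.39) and Cd163 (-0.52 ± 0.31). Of 9 monocyte markers 3 rose, among them Cd52 (1.62 ± 0.27) and Ccr2 (1.17 ± 0.23), with scores from 0.22 to 1.81 in knockout livers and from -0.35 to 0.70 in control livers. With the Kupffer cell and macrophage list Tgfb1 had an r of 0.58 and a rho of 0.40, and with the monocyte list an r of 0.72 and a rho of 0.55, which did not pass (permutation, adjusted p from 0.059 to 0.37). With the myofibroblast list Tgfb1 had an r of 0.74 and a rho of 0.75, which passed by rho alone (permutation, adjusted p = 0.059 and 0.029). That r was 0.95 in run 1 and 0.36 in run 2. With the lymphocyte score as a covariate, also added after seeing the data, Tgfb1 had a difference of -0.21 ± 0.13 (SE; adjusted p = 0.71). In that fit 3 genes were higher and 3 lower over all rows. With the Kupffer cell and macrophage score as the covariate instead, Tgfb1 had a difference of 0.11 ± 0.16 (SE; limma adjusted p = 0.81), so the smaller difference was not particular to the lymphocyte score.

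**Figure D4:**
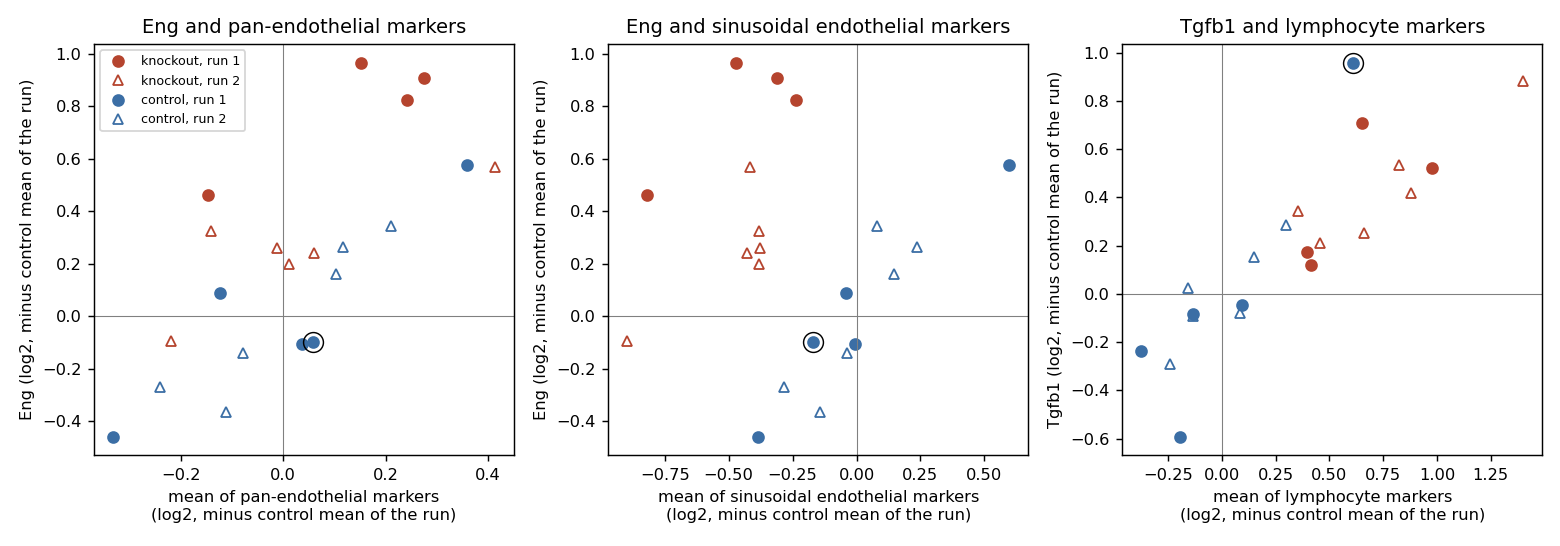
Eng against the pan-endothelial and sinusoidal marker scores and Tgfb1 against the lymphocyte score in each liver, all on the log2 scale relative to the controls of the same run (control replicate 3 ringed). Eng tends to be higher in livers of higher endothelial score among those of like genotype and run, knockout livers have sinusoidal scores from -0.90 to -0.24 against -0.38 to 0.60 in control livers, and Tgfb1 tends to be higher in livers of higher lymphocyte score.

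Tgfbr2 followed the myofibroblast markers (12 genes such as Col1a1 and Acta2), with r of 0.83 and rho of 0.77 (permutation, adjusted p = 0.0062 and 0.012), r of 0.87 in run 1, 0.77 in run 2, 0.72 without the 2 livers of most extreme Tgfbr2 and 0.74 without control replicate 3. Of these markers 3 rose and none fell (5 and none without control replicate 3), among them the receptor gene Pdgfra (0.83 ± 0.20, SE) and the crosslinking enzyme gene Loxl1 (0.56 ± 0.15), with a median of 0.41 and scores from 0.11 to 0.69 in knockout livers and -0.45 to 0.69 in control livers. The call of Loxl1 was lost without control replicate 8 or 9 (adjusted p up to 0.053). Among the myofibroblast markers that did not pass were Acta2 (0.34 ± 0.31), Tagln (-0.068 ± 0.12) and Thy1 (-0.074 ± 0.090). These 3 are named here outside the naming rule. Of 14 stellate cell markers 4 rose and none fell, with the lowest adjusted p values for the globin gene Cygb (0.96 ± 0.15) and the receptor gene Pdgfrb (0.59 ± 0.12), with scores from 0.034 to 0.48 in knockout livers and -0.26 to 0.24 in control livers. Of 7 platelet markers 1 rose, Pf4 (0.37 ± 0.10), whose call 6 of the 21 single omissions removed, with scores from -0.094 to 0.80 in knockout livers and -0.26 to 0.15 in control livers. No marker of hepatocytes or cholangiocytes passed (lowest limma adjusted p 0.051 for Cyp2e1, at -0.31 ± 0.10, and 0.060 for Sox9, at 0.57 ± 0.18). For the cholangiocyte marker Sox9 all 10 knockout livers lay above the control mean of their run. Krt19, another such marker, had a mean of 3.13 in knockout livers and 3.13 in control livers. Both lay under the array median of 3.75, where values can be close to background and a change may not be visible. The control means of Esm1 (3.42), Loxl1 (3.44), Pf4 (3.17) and the monocyte marker Ccr2 (3.52) also lay under that median.

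Around the members, 99 other genes of the pathway were measured in 5 lists. Of these, 14 rose and 3 fell (18 and 2 without control replicate 3), with a median difference of 0.051. Genes that store, activate or bind TGF-beta were measured first. Of 17 measured, 4 rose and 1 fell, and 13 of 17 were above 0, with a median of 0.27. The small proteoglycan genes Bgn (biglycan) and Dcn (decorin), whose products bind TGF-beta in the matrix, rose by 0.71 ± 0.13 (SE; adjusted p = 0.0036) and 0.45 ± 0.12 (adjusted p = 0.030). Ltbp1, whose product tethers latent TGF-beta to the matrix, was higher by 0.31 ± 0.07 in knockout livers (adjusted p = 0.014). Lrg1, a secreted glycoprotein gene whose product modifies endothelial TGF-beta signalling, rose by 0.58 ± 0.16 (adjusted p = 0.031). The gene that fell was the proteoglycan gene Fmod (-0.25 ± 0.07; adjusted p = 0.042), which is named here outside the naming rule. Without single livers the calls of Dcn (6 livers) and Lrg1 (5 livers) were lost, with an adjusted p up to 0.060 and 0.062, while those of Bgn and Ltbp1 were kept without each of the 21 livers. Without control replicate 3, 6 of the 17 were higher and none lower.

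Other receptors, ligands and SMAD genes came next: 2 of 23 rose and none fell, with a median of -0.0098. Gdf2, the gene of BMP9, which is the ligand of the ACVRL1 and endoglin complex, rose by 0.42 ± 0.10 (SE), by 0.46 in run 1 and 0.40 in run 2 (adjusted p = 0.014). All 10 knockout livers lay above the control mean of their run. Its log2 value averaged 6.18 in knockout livers and 5.75 in control livers, and the call was kept without each of the 21 livers. Rgmb, a BMP co-receptor gene, rose by 0.21 ± 0.06 (adjusted p = 0.037). Leaving out 1 liver removed this call for 11 of the 21, at an adjusted p of at most 0.074.

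Inhibitors of the pathway had 1 of 20 higher and 1 lower (1 and 2 without control replicate 3), with a median of -0.034. Nedd4l, a ubiquitin ligase gene that limits SMAD signalling, rose by 0.39 ± 0.09 (SE), with an adjusted p of 0.013. Fstl3, a secreted binder of activin, fell by 0.31 ± 0.08 (adjusted p = 0.022). Both calls were kept without each of the 21 livers.

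Genes known to respond to TGF-beta had 4 of 24 higher and none lower, with 20 of 24 above 0 and a median of 0.19. Tgfbi, a secreted matrix protein gene named for its induction by TGF-beta, rose by 1.07 ± 0.14 (SE; adjusted p = 2.16e-04), a 2.1-fold change, by 1.03 in run 1 and 1.10 in run 2. Tgm2, the gene of tissue transglutaminase, rose by 0.76 ± 0.15 (adjusted p = 0.0045). The growth factor gene Pdgfb (0.38 ± 0.11; adjusted p = 0.037) and the collagen gene Col1a1 (0.64 ± 0.19; adjusted p = 0.045) also rose. The calls of Tgfbi and Tgm2 were kept without each of the 21 livers, while leaving out 1 liver removed those of Pdgfb for 12 and Col1a1 for 15 of the 21, at adjusted p values of at most 0.070 and 0.083. Without control replicate 3, 6 of 24 were higher. Macrophages and fibroblasts also express such genes. Of the macrophage markers 7 of 12 and of the myofibroblast markers 3 of 12 rose, as given above, and their part in these differences was not tested. The response and myofibroblast lists are not separate sets. Col1a1, Col1a2, Col3a1, Acta2, Tagln, Timp1, Lox and Postn are on both, and Col1a1 is counted as higher in each.

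Genes known to respond to ACVRL1 and endoglin in endothelium had 3 of 15 higher and 1 lower (3 and none without control replicate 3), with a median of 0.095. That median was -0.061 in run 1 and 0.24 in run 2, and 0.26 without genes of mean under the median of all genes. Cd34, a sialomucin of continuous endothelium that is also on the capillary list, rose by 0.77 ± 0.11 (SE; adjusted p = 6.03e-04). The endothelial transcription factor genes Sox18 and Hey1 rose by 0.65 ± 0.13 (adjusted p = 0.0054) and 0.42 ± 0.10 (adjusted p = 0.019). Their control means, 3.59 and 3.70, lay under the array median of 3.75, where values can be close to background. The calls of Cd34, Sox18 and Hey1 were kept without each of the 21 livers. Gja4, a connexin gene of arterial endothelium, fell by 0.44 ± 0.13 (adjusted p = 0.045). Leaving out 1 liver removed this call for 14 of the 21, at an adjusted p of at most 0.086. Against the 3.28% higher and 4.05% lower of all rows, the lists are described by these counts alone, without a test of the list.

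**Figure D5:**
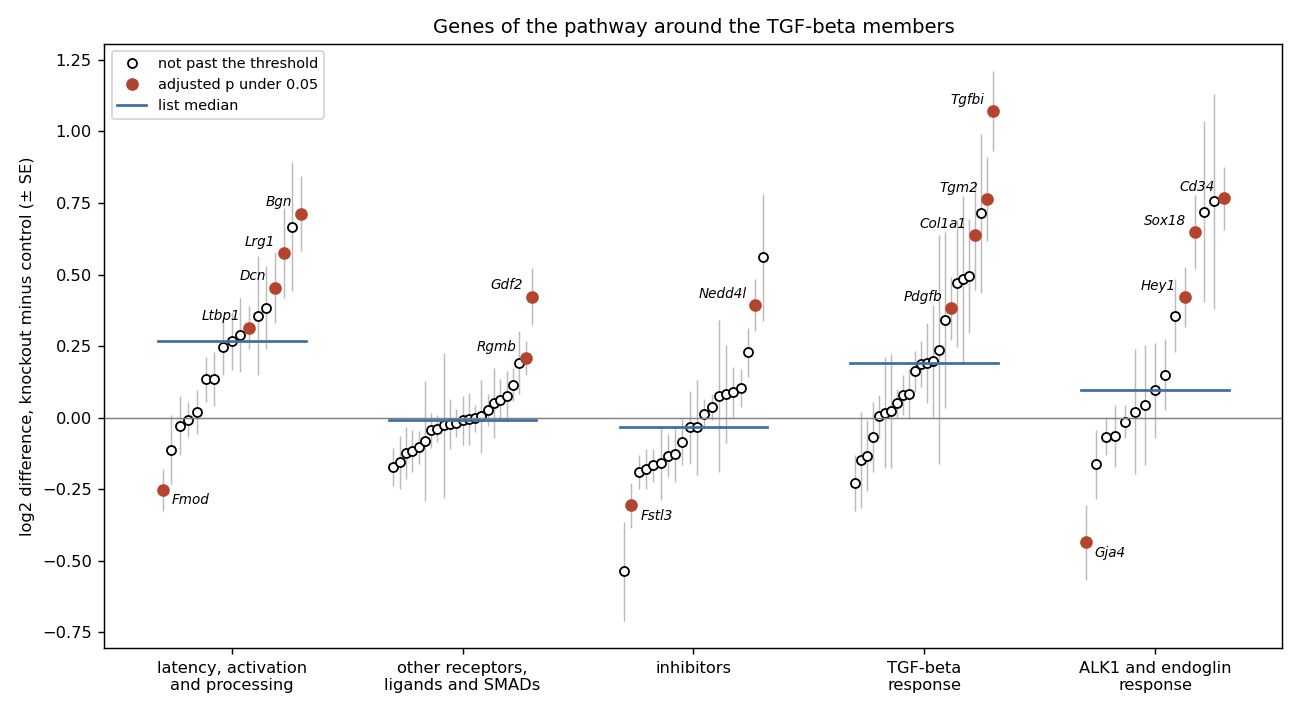
Log2 difference, knockout minus control, with SE, of each measured gene in the 5 pathway lists, with the list median (blue line) and genes past the adjusted p threshold filled and named. The medians are 0.27 for storage and activation, -0.0098 for other receptors, ligands and SMADs, -0.034 for inhibitors, 0.19 for TGF-beta response genes and 0.095 for ACVRL1 and endoglin response genes.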

How the data were processed

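Total RNA of whole liver was hybridised to Affymetrix arrays, as the labels' protocols state. The authors deposited log2 values made with RMA, per the submitters' processing notes; RMA version and build: not given in the sources used here. RMA sets the arrays to 1 distribution, and sorted columns differed by at most 0.0019. Signal over background was not analysed here, and array number limits the precision. Each row was 1 Entrez gene number; 24705 had a symbol in the platform annotation and 723 had none.

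Genotype was tested with limma 3.58.1 (R 4.3.3; lmFit, eBayes) with genotype and run as terms over 21 arrays and Benjamini-Hochberg adjustment over 25428 rows, without a filter; the procedure was tested on simulated data. The labels call samples biological replicates, so each array was taken as 1 animal. Members and lists were chosen with earlier results of these data known. Genes named were the members, Gata4, Clec4g, up to 4 genes per pathway list and 2 per marker list with the lowest adjusted p, and the 3 genes most like Eng. A few listed symbols without a row were not analysed here.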

Additional observations from a re-analysis of the deposited data

Results flagged for a closer look

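Dixon's ratio was applied to the 10 knockout livers for 49 named genes, and chance marks about 1 in 20 such groups. It marked 2, and none of the 10 TGF-beta genes. The monocyte marker Cd52 had a value of 7.74 in knockout replicate 6, with the other knockout livers from 5.20 to 6.31 and control livers from 3.68 to 5.87. The sinusoidal marker Plxnc1 had a value of 5.82 in knockout replicate 4, with the other knockout livers from 6.40 to 6.87 and control livers from 6.97 to 7.88. The control group of 11 was not examined in this way, and no named gene had a genotype by run term past the threshold.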

How the results depend on the processing

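Over all 21 livers 1 of the 10 TGF-beta genes passed, and 834 of all genes were higher and 1030 lower; of 99 pathway genes 14 were higher and 3 lower. Run 1 alone gave no member, 2 and 1 of all genes and no pathway gene in either direction, with Eng at 0.79, Tgfb2 at -0.013 and Tgfbr2 at -0.22. Run 2 alone gave no member, 552 genes higher and 4 pathway genes higher, with Eng at 0.25, Tgfb3 at -0.015 and Tgfbr3 at 0.12. These fits hold fewer livers. Replicate numbers are shared by the genotypes, but the correlation of same-numbered livers ran from -0.055 to 0.17, with 2 of 10 pairs over 0.1 and 1 of 10 knockout livers correlating best with its own number, so they share only a number. With the replicate block 602 genes were lower, Eng was 0.52 (adjusted p = 0.085) and Tgfb1 0.39 (adjusted p = 0.047). Without genes of mean under the median, and with array weights, 2 members passed, Tgfb1 being added (limma adjusted p = 0.048 and 0.049). The first of these fits left out Tgfb2 and called 871 genes higher and 1111 lower, from fewer rows than the main fit. More of the background thus passed there too. Array weights called 858 of all genes higher and 1013 lower, and gave 1 pathway gene lower and Tgfbr3 0.079. Without the run term 1 pathway gene was lower. The cause of these changes was not tested. Another quantile normalization, median centring, and an intensity trend with a robust prior left Eng the 1 member called and both other counts within 1.5 times.

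Leaving out each liver in turn gave 0 to 2 members passing, 0 to 2 higher and 0 lower. Of all genes 565 to 981 were higher and 629 to 1471 lower, and of pathway genes 9 to 18 were higher and 1 to 5 lower. Without control replicate 8 there were 565 higher, 629 lower and 9 pathway genes higher, and the most higher genes came without control replicate 3. Pathway genes lower were fewest without knockout replicate 4 and most without knockout replicate 6. The median of inhibitors ran from -0.065 to 0.032 and that of other receptors and SMADs from -0.028 to 0.0081. Eng ranged from 0.42 to 0.53, Tgfb1 from 0.36 to 0.51, Tgfbr2 from -0.0077 to 0.15 and Tgfbr3 from -0.059 to 0.045.

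Fits with a marker score as a covariate were added after seeing the data. With the pan-endothelial score 1 member, Eng, passed. The counts over all genes are not given here for that fit, so this call was not set against background. With the lymphocyte score no member and no pathway gene passed, 3 genes were higher and 3 lower, and Tgfb1 was -0.21, Tgfbr1 -0.019, Tgfbr2 -0.34 and Eng 0.46. With the Kupffer cell score no member passed, 101 genes were higher and 65 lower, and 2 pathway genes were higher and 1 lower. In that fit Tgfb1 was 0.11, Tgfbr2 -0.18, Smad3 -0.040 and Eng 0.44. Both scores differ between the genotypes. The cause of the lost calls was not tested. The median of ACVRL1 and endoglin response genes was -0.061 in run 1 and 0.24 in run 2.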

Other observations

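A few genes that respond to SMADs had opposite signs in the runs. Id1, Id2 and Id3, inhibitors of helix-loop-helix transcription factors, and Smad7, an inhibitory SMAD, are named here after their values were seen. In run 1 their log2 differences, knockout minus control, were -0.061, -0.58, -0.077 and -0.68, and in run 2 they were 1.36, 0.51, 1.31 and 0.64. The genotype by run terms were 1.42 ± 0.71 for Id1, 1.09 ± 0.36 for Id2, 1.39 ± 0.58 for Id3 and 1.32 ± 0.47 for Smad7 (SE; limma unadjusted p = 0.059, 0.0068, 0.026 and 0.010). Other such genes had 1 sign in both runs, such as Skil (0.73 and 0.43) and Pmepa1 (0.35 and 0.14). None of the 4 terms passed over all rows (adjusted p = 0.51, 0.27, 0.40 and 0.30). Over both runs Id1 had a difference of 0.76 ± 0.38 and an SD of 1.17 among knockout livers, against 0.57 among control livers.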
